A study of Mus musculus with 8 samples.

Results

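Vwf, Itgb3, Itga2b, Gp9 and Ppbp are the platelet and megakaryocyte genes described here, in RNA of CD11c+ splenocytes from C57BL/6 and lupus-prone B6.SLE123 mice. They were taken as the rows of the count table that carry a symbol from a list of 9 genes known from the lineage. The rule itself uses no measured value. These 5 were among the 13786 protein-coding genes of the table, and Pf4, Gp1bb, Gp5 and Treml1 were not analysed here. Each strain gave 4 samples from female mice of 7 weeks, with no treatment listed for either. B6.SLE123 is a congenic strain that carries the lupus susceptibility intervals Sle1, Sle2 and Sle3 on the C57BL/6 background, and C57BL/6 is its control. The labels call the cells dendritic cells, and the methods describe a selection on CD11c, which other splenic leukocytes also carry. The labels do not say that each sample came from a separate mouse. The p-values therefore set the strain difference against the spread between these samples, which may be technical.

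Megakaryocytes are the large cells of marrow and, in mice, of spleen that shed platelets into the blood. Platelets have no nucleus and keep a stock of megakaryocyte RNA, and they adhere to leukocytes, so their transcripts can be found in preparations of other cells. At a damaged vessel, von Willebrand factor on exposed collagen catches platelets through the glycoprotein Ib-IX-V complex. The integrin αIIbβ3 then binds fibrinogen and von Willebrand factor and links platelets to each other, while granules release chemokines and adhesive proteins. In the spleen, several of these genes are not specific to the lineage: endothelial cells make von Willebrand factor, and macrophages and other cells carry integrin β3.

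Across the set, Vwf fell to 51.7% of its C57BL/6 level in B6.SLE123 samples, Itgb3 was slightly lower with a call that depended on single samples, and Itga2b, Gp9 and Ppbp, the genes closest to the platelet lineage itself, were near the lower end of the table and did not pass the test in either direction. The strains were tested by the quasi-likelihood method of edgeR, with p-values adjusted over all genes after Benjamini and Hochberg. Of the 5 genes, 2 had an adjusted p below 0.05, both lower in B6.SLE123, where 53.4% of all genes tested passed and 26.6% passed as lower. A count of 2 of 5 is near that share and is no result about the set. None of the 5 changed more than 2-fold with that adjusted p, which 11.1% of all genes did. The median log2 fold change of the 5, B6.SLE123 over C57BL/6, was 0.04, beside -0.002 over all genes.

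Total counts ran from 25563070 to 37367094 per sample, and the deepest library was B6.SLE123 replicate 2. No samples of a strain agreed within sampling noise, with a chi-square per degree of freedom of 5.15 to 19.7 for the pairs. Every gene in the table has a median count of at least 5 in one of the strains or both, so genes below that were not tested. Levels are given as CPM, raw counts brought to a common library size, after TMM scaling. Reads from a cell type with few cells and reads from cells with little RNA cannot be told apart in such bulk samples. Of the dendritic cell markers, 12 of 12 were in the table, with C57BL/6 means from 12.8 CPM for Clec10a to 11172 CPM for Cd74. These 2 genes were named after their values were seen. Itgax, which encodes CD11c, stood at 1219 to 1398 CPM in C57BL/6 and at 1437 to 1652 CPM in B6.SLE123.

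Per kilobase of exon, the scale on which levels of different genes can be compared, the order in C57BL/6 was Itgb3 with 5.26 CPM per kb, Vwf with 2.92, Gp9 with 0.579, Itga2b with 0.292 and Ppbp with 0.213. The order was the same in B6.SLE123, with mean levels of 4.32, 1.51, 0.632, 0.337 and 0.219 CPM per kb. Itgb3 and Vwf were separate from each other and from the rest in every sample of a strain. Itga2b overlapped with Ppbp in both strains and with Gp9 in B6.SLE123, so the order of these 3 was not resolved there, and in C57BL/6 Gp9 alone was narrowly separate. Among all genes of the table, the mean level per kb put Itgb3 at percentile 46.7 and Vwf at percentile 32.8, while Gp9, Itga2b and Ppbp were at percentiles 19.8, 14.9 and 12.2.

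**Figure D1:**
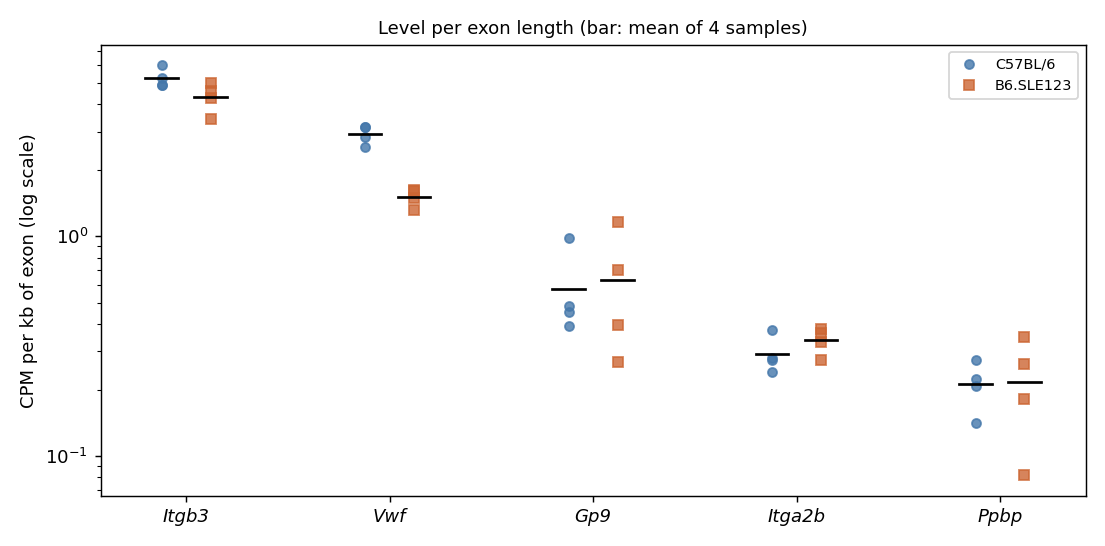
Level of the 5 genes in each of 4 C57BL/6 (circles) and 4 B6.SLE123 (squares) samples, in CPM per kb of exon on a log axis, with a bar at the mean of each strain. Itgb3 and Vwf lie above 1 CPM per kb in every sample, and the means of Gp9, Itga2b and Ppbp lie below it.

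Vwf encodes von Willebrand factor, the multimeric adhesive protein stored in platelet alpha granules and in the Weibel-Palade bodies of endothelium. The gene (ENSMUSG00000001930.17, mm10 chr6:125546774-125686679, + strand) overlaps no other annotated gene. Its raw counts were 1206, 1313, 1660 and 1233 in C57BL/6 replicates 1 to 4 and 819, 889, 712 and 664 in B6.SLE123 replicates 1 to 4. In CPM these were 45.6, 50.4, 50.6 and 40.8 against 25.9, 23.9, 21.1 and 26.1. All 4 C57BL/6 samples were above all 4 B6.SLE123 samples, with a wide gap between the strains. The mean fell from 46.9 ± 4.65 to 24.3 ± 2.35 CPM (SD, n = 4 each), a log2 fold change of -0.95 with a standard error of 0.086 and a 95% interval from -1.14 to -0.76 (edgeR adjusted p = 5.79e-06). The exact two-sided permutation test of the 4 against 4 values gave p = 0.0286, the smallest it can give. It was the only gene of the 5 whose strains did not overlap, while 48.9% of all genes were separated in either direction and 24.5% in this one. With any sample left out, the log2 fold change of Vwf stayed between -1.02 and -0.89 and passed the test.

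**Figure D2:**
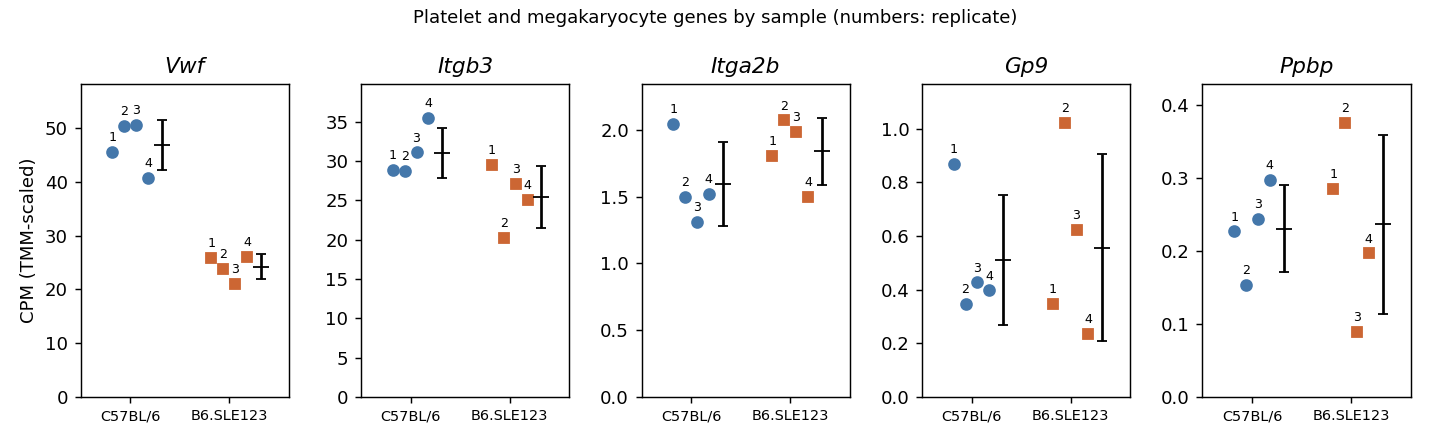
CPM of Vwf, Itgb3, Itga2b, Gp9 and Ppbp in every sample, each gene on its own linear axis from 0, with the replicate number over each point and the mean ± SD of 4 samples beside each strain. For Vwf the strains are separate, and for the other 4 genes they overlap.

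Itgb3 and Itga2b encode the chains of αIIbβ3, the fibrinogen receptor of platelets. Itga2b, the αIIb chain or CD41, is largely limited to megakaryocytes, platelets and some blood progenitors, whereas the β3 chain also pairs with the αv chain, from Itgav, on macrophages, endothelium and other cells.

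Itgb3 (ENSMUSG00000020689.4, mm10 chr11:104608000-104670476, + strand, no overlapping gene) had 28.8, 28.8, 31.1 and 35.5 CPM in C57BL/6 and 29.5, 20.3, 27.1 and 25.04 CPM in B6.SLE123, in the order of the replicates, from 636 to 1072 raw counts. B6.SLE123 replicate 1 stood above C57BL/6 replicates 1 and 2, so the strains overlapped. The mean was 31.1 ± 3.14 against 25.5 ± 3.92 CPM, a log2 fold change of -0.29 with a standard error of 0.11 and a 95% interval from -0.53 to -0.047 (edgeR adjusted p = 0.0448). The exact permutation test gave p = 0.0857. The edgeR call held in 3 of the 8 fits with a sample left out, with a log2 fold change between -0.37 and -0.20. It was lost without C57BL/6 replicate 1 (adjusted p = 0.0501), 3 (0.0822) or 4 (0.124) and without B6.SLE123 replicate 2 (0.0812) or 4 (0.0709).

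Itga2b (ENSMUSG00000034664.13, mm10 chr11:102453297-102470122, − strand) had 54, 39, 43 and 46 reads in C57BL/6 and 57, 77, 67 and 38 in B6.SLE123. A small non-coding gene, Gm23563, lies inside it on the same strand. The levels were 2.04, 1.497, 1.31 and 1.52 CPM against 1.80, 2.07, 1.98 and 1.496 CPM, and the strains overlapped over most of their range. The mean was 1.59 ± 0.314 in C57BL/6 and 1.84 ± 0.254 CPM in B6.SLE123, with a log2 fold change of 0.22, a standard error of 0.19 and a 95% interval from -0.19 to 0.63 (edgeR adjusted p = 0.338). That interval holds both a fall and a rise, so a change within it was not resolved by these samples.

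The chains of the integrin were therefore far from equal in RNA. Per kb of exon, Itgb3 exceeded Itga2b 13.04, 17.8, 21.9 and 21.5 times in C57BL/6 and 15.1, 9.05, 12.6 and 15.5 times in B6.SLE123. The mean ratio was 18.6 ± 4.13 against 13.1 ± 2.96. In the log2 ratio the difference was -0.51, beside SDs of 0.348 in C57BL/6 and 0.357 in B6.SLE123. It was not resolved by these samples (exact two-sided permutation p = 0.114). Itgav, looked up after the values of Itgb3 and Itga2b were seen, was more abundant than both, at 10.6 ± 0.921 CPM per kb in C57BL/6 and 7.62 ± 0.122 in B6.SLE123, with no overlap of the strains (log2 fold change -0.48, edgeR adjusted p = 4.56e-05). The level of Itgb3 per kb relative to Itgav was 0.497 ± 0.0601 in C57BL/6 and 0.566 ± 0.0824 in B6.SLE123, with overlap.

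Gp9 and Ppbp are small genes of the platelet itself. Gp9 encodes glycoprotein IX, a subunit of the von Willebrand factor receptor, and Ppbp encodes pro-platelet basic protein, or CXCL7, a chemokine of the alpha granule that attracts neutrophils. Megakaryocyte genes are known to be driven by GATA1, which binds GATA, and by ETS factors such as FLI1, which bind sites with a GGAA core. The promoters of these genes are shown with both motifs because they are the stretches through which such factors are known to act. Each is the 250 bases before the start of the RefSeq gene, on GRCm38.p6, written 5′ to 3′ on the strand of the gene. Capitals mark GATA and GGAAG on either strand, so that the latter also appears as CTTCC. No match of one motif overlapped a match of the other.
Ppbp, chr5:90768268-90768517, + strand: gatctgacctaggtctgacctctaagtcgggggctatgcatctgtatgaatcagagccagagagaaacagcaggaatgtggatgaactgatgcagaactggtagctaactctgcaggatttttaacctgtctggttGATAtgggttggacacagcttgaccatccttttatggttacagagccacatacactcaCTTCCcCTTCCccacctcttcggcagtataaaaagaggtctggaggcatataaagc
Gp9, chr6:87777820-87778069, + strand: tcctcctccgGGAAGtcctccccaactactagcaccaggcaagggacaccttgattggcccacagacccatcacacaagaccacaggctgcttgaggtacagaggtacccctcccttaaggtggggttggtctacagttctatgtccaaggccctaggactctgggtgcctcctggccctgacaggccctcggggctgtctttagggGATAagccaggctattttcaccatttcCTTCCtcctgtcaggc

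In the Ppbp window GATA begins 114 bases before the start, and GGAAG matches begin 56 and 50 bases before it. In the Gp9 window GATA begins 43 bases before the start, and GGAAG matches begin 240 and 16 bases before it. Such letters are common, since 53.6% of 32817 promoter windows of this length hold GATA and 64.1% hold GGAAG. The matches describe the sequence and do not show binding.

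Gp9 (ENSMUSG00000030054.4, mm10 chr6:87778072-87779768, + strand, no overlapping gene) had 23, 9, 14 and 12 reads in C57BL/6 and 11, 38, 21 and 6 in B6.SLE123. The corresponding levels were 0.870, 0.345, 0.427 and 0.397 CPM against 0.348, 1.02, 0.621 and 0.236 CPM. The highest and the lowest value of the gene were thus both in B6.SLE123. Their exact 95% Poisson intervals did not meet, at 0.723 to 1.40 CPM for B6.SLE123 replicate 2 and 0.0867 to 0.514 CPM for replicate 4. These samples were picked as the extremes after the values were seen, so the gap is a description and no test. The means of 0.510 ± 0.243 and 0.557 ± 0.349 CPM differed by less than the spread within a strain (log2 fold change 0.19, standard error 0.45, 95% interval -0.82 to 1.19, edgeR adjusted p = 0.753). Without B6.SLE123 replicate 2 the log2 fold change was -0.30, so its sign rests on that sample.

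Ppbp (ENSMUSG00000029372.7, mm10 chr5:90768518-90770063, + strand, no overlapping gene) was the least abundant of the 5, with 6, 4, 8 and 9 reads in C57BL/6 and 9, 14, 3 and 5 in B6.SLE123. Its levels were 0.227, 0.154, 0.244 and 0.298 CPM against 0.285, 0.376, 0.0888 and 0.197 CPM, and the C57BL/6 values lay within the B6.SLE123 range. The lowest of them, in B6.SLE123 replicate 3, has an exact 95% Poisson interval from 0.0183 to 0.259 CPM. Such intervals cover counting error only. The means were 0.231 ± 0.0596 and 0.237 ± 0.123 CPM (log2 fold change 0.04, standard error 0.44, 95% interval -0.92 to 1.01, edgeR adjusted p = 0.938). The intervals of Gp9 and Ppbp thus leave changes of up to about 1 on the log2 scale unresolved by these samples.

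Summed over the 5 genes, C57BL/6 samples held 77.6 to 83.7 CPM (80.3 ± 2.76) and B6.SLE123 samples 47.6 to 57.8 CPM (52.4 ± 4.29). That difference was carried by Vwf, which made up 58.3% ± 4.44 of the sum in C57BL/6 and 46.4% ± 4.06 in B6.SLE123, and to a lesser extent by Itgb3. Itga2b, Gp9 and Ppbp together came to 1.98 to 3.14 CPM (2.33 ± 0.548) in C57BL/6 and 1.93 to 3.47 CPM (2.63 ± 0.641) in B6.SLE123, with the strains overlapping.

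A further pair of genes close to the lineage, Gp1ba and Tubb1, also had low levels and did not pass the test. Gp1ba, the chain of the glycoprotein Ib complex that binds von Willebrand factor, was at 1.72 ± 0.174 CPM in C57BL/6 and 1.497 ± 0.289 CPM in B6.SLE123 (log2 fold change -0.19, edgeR adjusted p = 0.392). Tubb1, the β1-tubulin of the platelet marginal band, was at 0.560 ± 0.144 and 0.574 ± 0.189 CPM (log2 fold change 0.06, adjusted p = 0.886). For all 5 of Itga2b, Gp9, Ppbp, Gp1ba and Tubb1, the highest B6.SLE123 value was that of replicate 2, a pattern seen after the values were known and not tested. Among C57BL/6 samples, replicate 1 was highest for Itga2b, Gp9 and Gp1ba, replicate 4 for Ppbp and replicate 2 for Tubb1.

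The wider platelet and megakaryocyte programme was followed in 5 lists of other genes grouped by role, of which 70 of 82 genes were in the table. The remaining 12, among them Gp6, Selp and Gata1, were not analysed here. Of the 70 genes, 28 fell and 14 rose in B6.SLE123 (edgeR adjusted p below 0.05), or 60% beside 53.4% of all genes, and their median log2 fold change was -0.15. More than 2-fold changes with that adjusted p were found for 11 genes, or 15.7% of the 70 beside 11.1% of all genes, and 3 of the 11, Thbs1, Gfi1b and Tal1, lost their call in most fits with a sample left out. All of these 11 were lower except Mylk, myosin light chain kinase, which rose from 0.695 to 1.54 CPM and was named after its value was seen. Of the 11, Gfi1b was tested only through its counts in C57BL/6, the strain where it is higher.

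The share of calls differed with the level of the genes. With a boundary at a mean of 5 CPM, chosen after the values were seen, 9 of 27 genes below it were called, or 33.3%, beside 38.7% of all genes at that level. Of the 43 genes at or above it, 33 were called, or 76.7%, beside 58.6% of all genes.

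**Figure D3:**
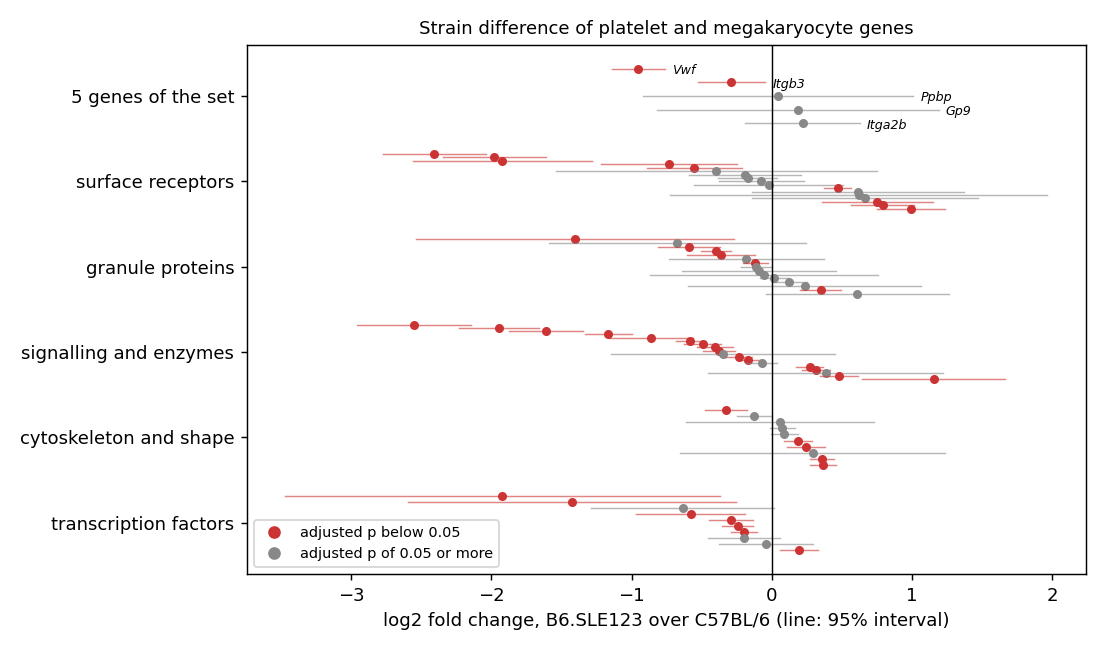
Log2 fold change of B6.SLE123 over C57BL/6 (points) with 95% intervals (lines) for the 5 genes and the 70 other platelet and megakaryocyte genes, grouped by role and coloured by the edgeR call. Vwf and Itgb3 lie left of 0, intervals of Itga2b, Gp9 and Ppbp span 0, and the largest falls of the surface receptors and the enzymes reach beyond -2.

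Among surface receptors, 17 of 23 genes were in the table, and 5 fell, 4 rose and 8 did not pass, with a median log2 fold change of -0.07. The share called, 52.9%, is close to the 53.4% of all genes. Clec1b, or CLEC-2, the platelet receptor for podoplanin that is also found on myeloid cells, fell from 45.7 ± 6.11 to 8.71 ± 2.35 CPM (log2 fold change -2.40, adjusted p = 1.04e-06). It overlaps Clec9a on the same strand, and Clec9a itself rose. P2ry12, the ADP receptor of platelets and of some macrophages, fell from 39.5 to 10.1 CPM (log2 fold change -1.98, adjusted p = 3.52e-06), and it lies inside Med12l on the opposite strand. F2rl2, Tbxa2r and Pear1 also fell, and Cd9, Ptgir, Itga6 and Cd36 rose, these 7 being named after their values were seen.

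Of the granule proteins and genes of granule formation, 15 of 17 were in the table. Among these, 5 fell and 1, Srgn, rose (40% called beside 53.4% of all genes, median -0.11). Thbs1, or thrombospondin 1, which lies over a gene on the opposite strand, averaged 2.90 ± 2.33 CPM in C57BL/6 and 1.08 ± 0.499 CPM in B6.SLE123, and the strains overlapped (log2 fold change -1.40, adjusted p = 0.0394). That call was kept in 3 of the 8 fits with a sample left out, those without C57BL/6 replicate 1 or 4 or B6.SLE123 replicate 2. C57BL/6 replicate 2 had 6.33 CPM beside 1.21 to 2.29 CPM in the others of its strain, and without it the log2 fold change was -0.70 (edgeR adjusted p = 0.149). Pdgfb, a growth factor chain of the alpha granule also made by other cells, fell from 66.7 to 44.4 CPM (log2 fold change -0.59, adjusted p = 0.000504). The other genes that fell were Tgfb1, Pdgfa and Hps1, which like Srgn were named after their values were seen.

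Of the signalling proteins and enzymes, 18 of 19 were in the table, of which 11 fell and 4 rose, or 83.3% beside 53.4% of all genes and 58.6% of all genes at 5 CPM or more, and the median was -0.36. Ptgs1, or cyclooxygenase 1, fell from 189 ± 21.2 to 32.4 ± 9.49 CPM (log2 fold change -2.55, adjusted p = 1.4e-06). Tbxas1, thromboxane A synthase, which acts after it in making thromboxane from arachidonic acid, fell from 117 ± 11.6 to 30.3 ± 6.24 CPM (log2 fold change -1.94, adjusted p = 8.91e-07). Both enzymes are found in macrophages as well as in platelets, and both genes overlap other annotated genes. Plcg2, Plek, Rgs18 and Mylk were the 4 that rose, named after their values were seen.

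Cytoskeletal genes had the only list median above 0, 0.14, with 4 of 10 genes higher and 1, Actn1, lower. The share called was 50%, beside 53.4% of all genes. Myh9, non-muscle myosin heavy chain IIA, rose from 1669 to 2136 CPM and Wdr1, an actin-disassembly factor, from 428 to 550 CPM (log2 fold change 0.36 for each, adjusted p = 2.11e-05 and 3.26e-05). These are genes of most blood cells, and Tubb1 is the member closest to platelets.

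Of the transcription factors, 10 of 12 were in the table. Among these, 6 fell and 1, Mef2c, rose (70% called beside 53.4% of all genes, median -0.27). Fli1 fell from 57.2 to 49.9 CPM (log2 fold change -0.20, adjusted p = 0.00262) and Runx1 from 72.8 to 61.5 CPM (-0.24, adjusted p = 0.0018), and both act in many blood cells. Nfe2, which drives late platelet formation and is active in erythroid cells, had 4.32 ± 1.34 and 2.79 ± 1.22 CPM with an adjusted p of 0.0933. Gfi1b and Tal1, shared by the megakaryocyte and erythroid lineages, passed with adjusted p of 0.0413 and 0.0388 on means of 0.254 and 0.611 CPM in C57BL/6 and 0.0900 and 0.160 CPM in B6.SLE123. Gfi1b had 3, 4, 4 and 1 reads in B6.SLE123, so it was tested only through its C57BL/6 counts. Such a selection favours a fall. Gfi1b kept its call in 1 of the 8 fits with a sample left out, that without C57BL/6 replicate 4, and Tal1 in 3, those without C57BL/6 replicate 1 or 4 or B6.SLE123 replicate 1. C57BL/6 replicate 3 held 48 Tal1 reads beside 3, 14 and 10 in the others of its strain, and 15 Gfi1b reads beside 6, 6 and 3. Without it the log2 fold change of Tal1 went from -1.92 to -0.98 (edgeR adjusted p = 0.191) and that of Gfi1b from -1.43 to -0.94 (0.167). Meis1, which fell, stands in the list of stem and progenitor markers too, and like Ikzf2 and Mef2c was named after its value was seen.

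Markers of other cells that a CD11c+ preparation can hold moved between the strains, some of them strongly. Over all genes, 26.6% passed as lower and 26.7% as higher. All 12 of 12 red pulp macrophage markers fell, with a median of -2.38 on the log2 scale and a summed level of 13260 to 17080 CPM in C57BL/6 against 1919 to 3802 CPM in B6.SLE123. Vwf, Clec1b, P2ry12, Ptgs1 and Tbxas1 were lower in the same strain, and the part of the macrophage markers in those falls was not tested. Of 13 erythroid markers, 10 fell and 1 rose (median -2.78). Hba-a2, an α-globin gene, had no count in any B6.SLE123 sample, but Hba-a1, another, had 395, 276, 79 and 413 reads there. Hba-a1 fell from 44.3 to 9.63 CPM and was named after its value was seen. Of the 10 that fell, Hba-a2, Rhag and Epb42 had a median count of at least 5 in C57BL/6 only. They were tested only through the strain where they are higher, a selection that favours a fall. Rhag and Epb42 were named after their values were seen. The summed levels of the 13 markers overlapped, at 193 to 396 CPM and 247 to 298 CPM. Much of the sum was Tfrc, the transferrin receptor, which rose from 114 to 242 CPM and was named after its value was seen. Gfi1b and Tal1 were lower in the same strain as the 10 that fell, and the part of these markers in those falls was not tested.

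Endothelial cells, the other main source of von Willebrand factor, were followed by 15 markers, of which 14 were in the table. One of them, Stab2, fell, 5 rose and 8 did not pass (42.9% called beside 53.4% of all genes). Tek, one of the 5, had 1, 4, 0 and 2 reads in C57BL/6 and was tested only through its B6.SLE123 counts. Such a selection favours a rise. Tie1, Cldn5 and Mmrn2, which did not pass, were tested through that strain only as well. These genes were named after their values were seen. The 14 had a median log2 fold change of 0.74. Their summed level was 217 to 264 CPM in C57BL/6 and 76.8 to 96.5 CPM in B6.SLE123, but Stab2, a scavenger receptor of sinusoidal endothelium, made up most of it with 190 to 230 CPM and 24.5 to 47.3 CPM. Leaving Stab2 out, a choice made after its values were seen, the sum was 26.6 to 34.4 CPM in C57BL/6 and 46.4 to 56.3 CPM in B6.SLE123, the opposite order. Most of that sum was Kdr, which rose from 10.5 to 19.0 CPM, and Flt1, which rose from 11.7 to 21.5 CPM. Both were named after their values were seen. Cdh5, or VE-cadherin, was at 3.67 to 4.88 CPM and 3.33 to 6.01 CPM with overlap, and none of these levels was tested for its part in the fall of Vwf.

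Dendritic cell markers rose in 9 and fell in 2 of 12 cases (median 0.27), with sums of 23418 to 27334 CPM and 29267 to 30868 CPM. Of 8 B cell markers 7 fell (median -0.64). Of the 8 monocyte markers 2 fell and 1 rose, and of 8 neutrophil markers 2 fell and 3 rose. Camp, one of these 3, had 4, 4, 7 and 3 reads in C57BL/6 and was tested only through its B6.SLE123 counts. That selection favours a rise, and Camp was named after its value was seen. Of 5 stem and progenitor markers 1 fell and 3 rose. Of 7 T cell markers 1, Lck, fell and 2, Cd8a and Cd5, rose, while Cd3e, Cd3d, Cd3g and Cd4 did not pass. Cd8a went from 185 to 288 CPM, and Cd3e was at 4.13 and 2.93 CPM. These 7 were named after their values were seen. The shares called were 37.5% of monocyte, 62.5% of neutrophil and 42.9% of T cell markers, beside 53.4% of all genes. None of 3 mast cell and basophil markers and none of 5 NK cell markers passed. The part of these cells in the results was not tested.

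**Figure D4:**
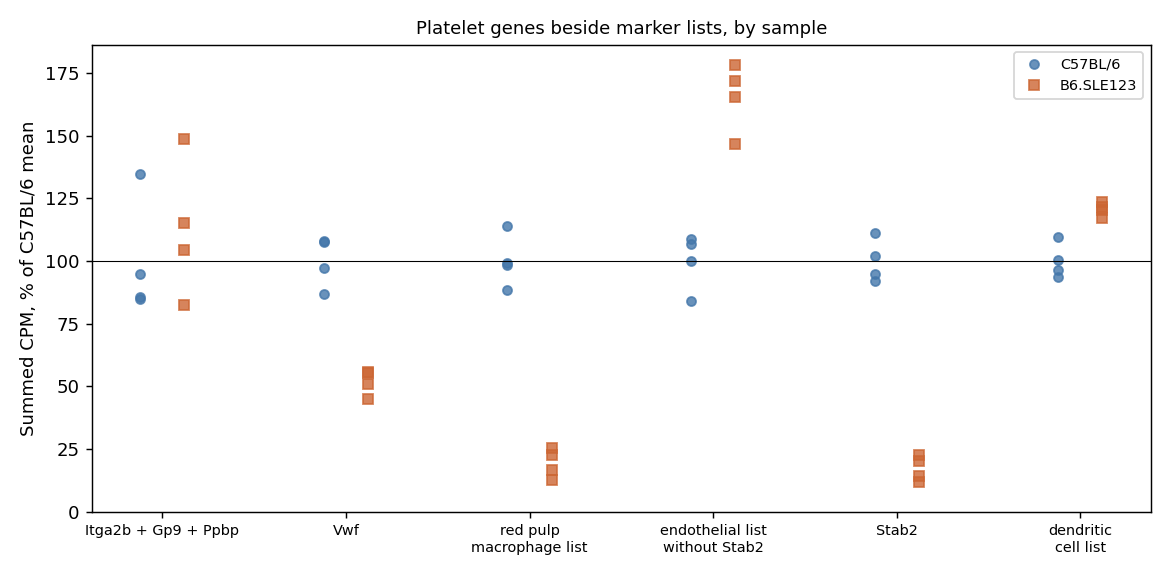
Summed CPM per sample as a percentage of the C57BL/6 mean (line at 100%) for Itga2b with Gp9 and Ppbp, Vwf, the red pulp macrophage list, the endothelial list without Stab2, Stab2 and the dendritic cell list, with C57BL/6 as circles and B6.SLE123 as squares. The strains overlap for the first group, B6.SLE123 samples are lower for Vwf, the macrophage list and Stab2, and higher for the last endothelial and dendritic cell sums.

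To place each gene among all others, profiles over the 8 samples were compared by the mean absolute difference of log2 CPM, each centred on its own mean, over genes with a mean of at least 1 CPM. The genes nearest to Vwf were Cbr1, at a distance of 0.0456, then Zswim6, P2rx7, Idh1 and Nln, at up to 0.0988. Nearest to Itgb3 were Zpr1 at 0.0614, Ubox5, Cd300lg, Elmod3 and Cdpf1 at 0.0697. Itga2b was closest to Abca17 at 0.0820, then Fndc9, Ccnyl1, Rttn and Ccdc15 at 0.0925. The profiles of Gp9 and Ppbp were matched less closely, with Abca17, Sarm1, Tdo2, Tmem253 and Ube2v1 at 0.300 to 0.323 from Gp9 and Coq4, Mrnip, Armcx6, Etfb and Got1 at 0.195 to 0.244 from Ppbp. Gp9 and Ppbp, with 6 to 38 and 3 to 14 reads per sample, were themselves below 1 CPM on average. Genes at their own level were therefore not among those compared. All profiles come from the same 8 libraries, so the distances are descriptions and carry no test.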

How the data were processed

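RNA of CD11c+ splenocytes from 4 C57BL/6 and 4 B6.SLE123 samples was sequenced from stranded mRNA libraries. The authors used FastQC for quality checks, cutadapt for trimming, STAR for alignment to mm10 and featureCounts for counting. The strand setting of the counting is not given in the sources used here. The deposited values are raw counts, without normalization. Columns of the authors' DESeq2 comparison (means, fold changes and p-values) were not used. Groups were taken from the sample names, since the strain numbers in the genotype labels rise from sample to sample. Symbols of 21 genes that had become dates were looked up by identifier.

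Counts of all 13786 genes were scaled by TMM and tested without a filter by the quasi-likelihood F test of edgeR 4.0.16 in R 4.3.3, at a threshold of 0.05 after Benjamini-Hochberg adjustment. The steps were tested on simulated data. Single values were compared by exact two-sided permutation tests (scipy 1.17.1). Exon lengths and overlaps come from GENCODE M21, where all 5 genes have the table's coordinates, and promoters from RefSeq. The 5 genes and the lists were chosen with earlier results of these data known. Genes named from the other lists were Gp1ba, Gp6, Clec1b, Tubb1, Selp, Gata1, Nfe2, Fli1 and Runx1 where in the table, the 2 largest called changes of each list, and the 5 nearest profiles of each gene. A further gene of that rule is not reported here. Alternatives were relative log expression factors, DESeq2 1.42.0, limma-voom (limma 3.58.1), a block for replicate number, a minimum of 10 counts in each sample, a more than 2-fold threshold and each sample left out.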

Additional observations from a re-analysis of the deposited data

Results flagged for a closer look

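Wdr1 in B6.SLE123 replicate 3 had a log2 CPM of 9.01, below the strain's median of 9.13, and the gap to the nearest other sample was 0.866 of the strain's range. It was the only value set apart in this way among 92 groups of 4 samples, where chance gives about 4.6.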

How the results depend on the processing

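Vwf kept its direction and its call under relative log expression factors, the count filter, the replicate block, DESeq2, limma-voom and every fit with a sample left out. Itgb3 kept its call under the first 5 of these, with adjusted p from 0.0261 to 0.0449. Replicate numbers are shared by the strains. Same-numbered samples correlated at 0.0586, 0.225, 0.0692 and 0.14 over 11297 genes, and differently numbered ones at -0.188 to 0.0995. C57BL/6 replicates 1 and 3 correlated best with B6.SLE123 replicates 3 and 1, at 0.0823 and 0.0995. The labels do not pair the samples, and whether the numbers do was not tested, so the main fit has no block. With the replicate block, 7183 genes were called in place of 7356, Itgb3 had an adjusted p of 0.0261, and the log2 fold change of Ppbp was -0.0053. It was -0.10 under limma-voom. The filter of 10 counts removed Gp9 and Ppbp and moved the median of the set to -0.30. Past 2-fold, 0 of the 5 and 11 of the other genes were called.

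With a sample left out, 1 to 2 of the 5 genes and 37 to 43 of the other genes were called. The median of the set then ran from -0.302 to 0.151, the log2 fold changes of Itgb3 from -0.370 to -0.199, Itga2b from 0.13 to 0.36, Gp9 from -0.30 to 0.55, Ppbp from -0.31 to 0.33 and Tubb1 from -0.204 to 0.211. Nfe2 passed without C57BL/6 replicate 4 (adjusted p = 0.0354) or B6.SLE123 replicate 1 (0.00874). Thbs1 was lost under limma-voom (0.0704), Gfi1b under DESeq2 (0.0859) and limma-voom (0.0661), and Tal1 under the block (0.0534) and limma-voom (0.108). The cause of these changes was not tested. Gp9 and Ppbp had median counts of 13 and 7 in C57BL/6 and 16 and 7 in B6.SLE123, and the parts of depth and of the spread between samples in their intervals were not told apart.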
